A study of Mus musculus with 8 samples.

Results

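The genes described here carry iron into the cell (Tfrc, Slc11a2, Slc39a14, Steap3), store it and release it from store (Fth1, Ncoa4), export it (Slc40a1) and sense it (Ireb2, Aco1, Fbxl5). They were chosen by name from the iron pathway, and their measurements are all probe sets annotated to one of those symbols alone. That gave 10 genes with 28 probe sets, of 18193 genes with 34948 probe sets in all, including the 3 array controls for the transferrin receptor. RNA was measured on 8 Affymetrix Mouse 430 2.0 arrays, on which a gene can have several sets of short probes. The cells were C2C12 myotubes, the fused muscle cells of an established mouse myoblast line, after 3 days in medium with 2% dialyzed FBS. All cultures were then infected with adenovirus and harvested 3 days later, so every group carried virus and GFP. One pair of arrays came from cells with GFP alone and one from cells with GFP-PGC-1α, called PGC-1α from here on. Another pair came from GFP cells given 100 µM of the iron chelator deferoxamine (DFO) and the last from PGC-1α cells given the same dose. Each of the 4 groups thus had 2 arrays, which the series' design text calls biological duplicates, of 1 cell line and 1 time point.

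Iron reaches muscle cells bound to transferrin, which the transferrin receptor takes into endosomes. There a STEAP reductase reduces it and a divalent metal transporter moves it to the cytosol. Ferritin stores what is not used, NCOA4 delivers ferritin for breakdown, and ferroportin exports iron. When iron is short, the iron regulatory proteins bind iron-responsive elements in messenger RNA, which stabilises the receptor's transcript and blocks translation of ferritin. FBXL5 marks one of these proteins for degradation when iron is present. PGC-1α is a transcriptional coactivator that raises the expression of mitochondrial genes, and mitochondria take up much of a cell's iron for haem and iron-sulfur clusters.

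The construct was read by 1 Ppargc1a probe set, 1460336_at, at 28.6 and 37.3 intensity units with GFP, 26.6 and 88.1 with GFP plus DFO, 7211 and 7036 with PGC-1α, and 7930 and 7710 with PGC-1α plus DFO. Array medians lay between 59.5 and 62.8 units. Within each group, the pair of arrays correlated on the log2 scale with r of 0.942 to 0.962, taken over probe sets, which do not replicate one another. Probe sets above the median level differed by a median of 0.191 on the log2 scale between the 2 arrays of PGC-1α plus DFO, against 0.098 to 0.131 in the other groups. The beta-actin ratio of 5′ to 3′ signal, a sign of intact RNA, was 0.753 and 0.811 with PGC-1α plus DFO, 0.868 and 0.859 with GFP plus DFO, and 0.897 to 0.921 without DFO. All 7 myotube markers lay above the median level of all probe sets. Their summed intensity was 50982 to 53540 with GFP and 44492 to 44573 with PGC-1α. It was 23109 to 23452 with GFP plus DFO and 16144 to 17246 with PGC-1α plus DFO. Single markers moved unequally. Myog was at group means of 5277, 5270, 157 and 67.1 units in that order of groups. Ckm was at 5217, 3680, 536 and 230, and Myh3 at 5353, 2473, 1450 and 294. Acta1 moved less, at 12232, 10512, 10187 and 6168 units, as did Des, at 4656, 5371, 3856 and 4550. The summed intensity of 5 myoblast or reserve cell markers was 2097 to 2131, 1904 to 1955, 616 to 616.4 and 256 to 384 units in the same order. That sum followed Myod1, at group means of 1338, 1089, 170 and 51.3 units, and Myf5, at 646, 741, 182 and 83.2. Cd34 ran the other way with DFO, at 76.9, 57.1, 207 and 121 units, and Pax7 was dim at 24 to 37 units with its lowest mean in GFP. For other cell types, 4 macrophage markers summed to 1732 to 2593 units over the 8 arrays, with most of it from Csf1r at group means of 1343 to 1682, 2 erythroid markers to 123 to 197 and 3 hepatocyte markers to 233 to 411. Ptprc was at 17 to 28 units by group mean and Alb at 77 to 116, and no marker was listed at 0. Cd68 was dim and higher on all 4 DFO arrays, at means of 33.1 units with GFP, 41.3 with PGC-1α, 84.0 with GFP plus DFO and 80.2 with PGC-1α plus DFO. Levels of myotube markers, Myod1, Myf5, Cd34 and Cd68 and both 5′ to 3′ ratios thus differed with DFO, and their part in the DFO results was not tested. Fewer cells of a type and less RNA per cell cannot be told apart in such samples.

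Of the 10 genes, those that changed in at least 1 comparison of a single factor were Tfrc, Slc11a2, Slc39a14 and Slc40a1. The share of all genes that changed in at least 1 such comparison was not counted, so shares are given per comparison. Each gene is led by its brightest probe set, and a change is called where limma's adjusted p over all 45101 probe sets is under 0.05. With PGC-1α against GFP without DFO, 1 of the 10 rose (Tfrc) and 0 fell, where 2.84% of all genes rose and 1.35% fell. With DFO in GFP cells, 0 rose and 2 fell (Slc40a1 and Slc11a2), against 8.79% and 9.43% of all genes. With PGC-1α against GFP in the presence of DFO, 3 rose (Tfrc, Slc11a2 and Slc39a14) and 1 fell (Slc40a1), against 4.67% and 7.13%. With DFO in PGC-1α cells, 2 rose (Slc11a2 and Slc39a14) and 1 fell (Slc40a1), against 8.67% and 11%. With both treatments against GFP, 3 rose and 1 fell, against 10.9% and 15.2%. The median change of the 10 genes lay between -0.08 and 0.09 on the log2 scale over these comparisons, and that of all genes between -0.08 and 0.01. Comparisons that share a group share its arrays, as the first, second and last of these share the GFP arrays.

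**Figure D1:**
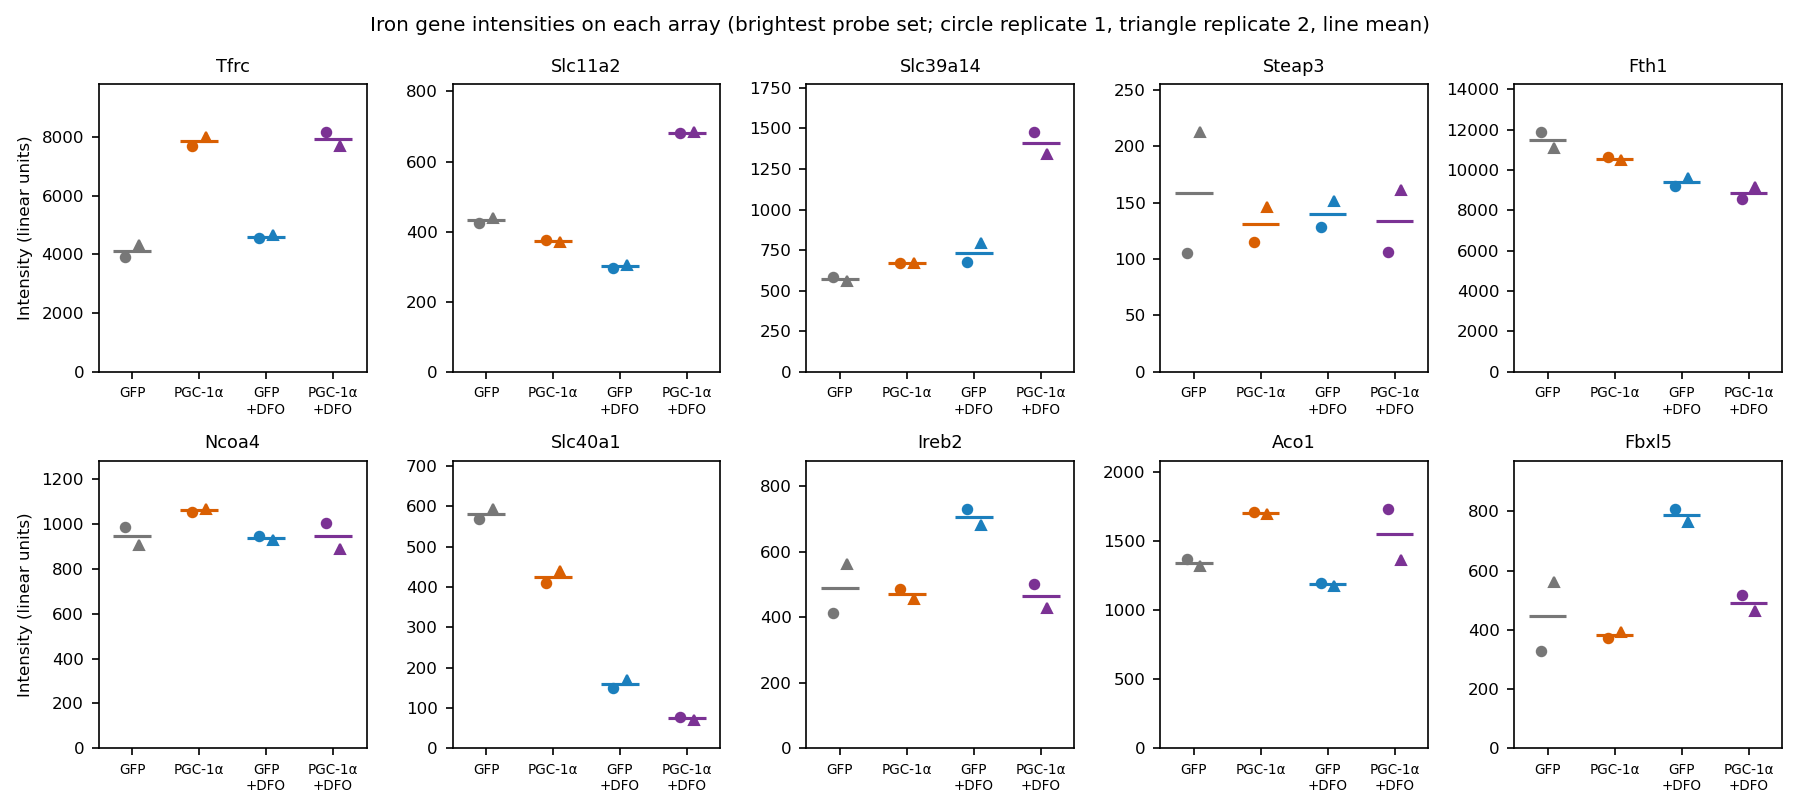
Intensity in linear deposited units of each gene's brightest probe set on all 8 arrays, 1 panel per gene, with circles for replicate 1, triangles for replicate 2 and a line at the group mean. Both PGC-1α groups are high for Tfrc, only PGC-1α plus DFO is high for Slc11a2 and Slc39a14, and both DFO groups are low for Slc40a1.

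The interaction of construct and DFO asks whether the DFO change differed between PGC-1α and GFP cells. By limma, 0 of the 10 genes rose or fell in it at an adjusted p under 0.05, against 0.011% and 0.0165% of all genes. At an unadjusted p under 0.05 it took in 3 of the 10 genes and 5926 of the 45101 probe sets. In a limma fit of only the brightest probe set of each gene, it took in 3173 of 18193 genes. Those 3 genes were Slc11a2 (1.39 on the log2 scale, adjusted p = 0.0923), Slc39a14 (0.72, adjusted p = 0.242) and Slc40a1 (-0.66, adjusted p = 0.252).

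**Figure D2:**
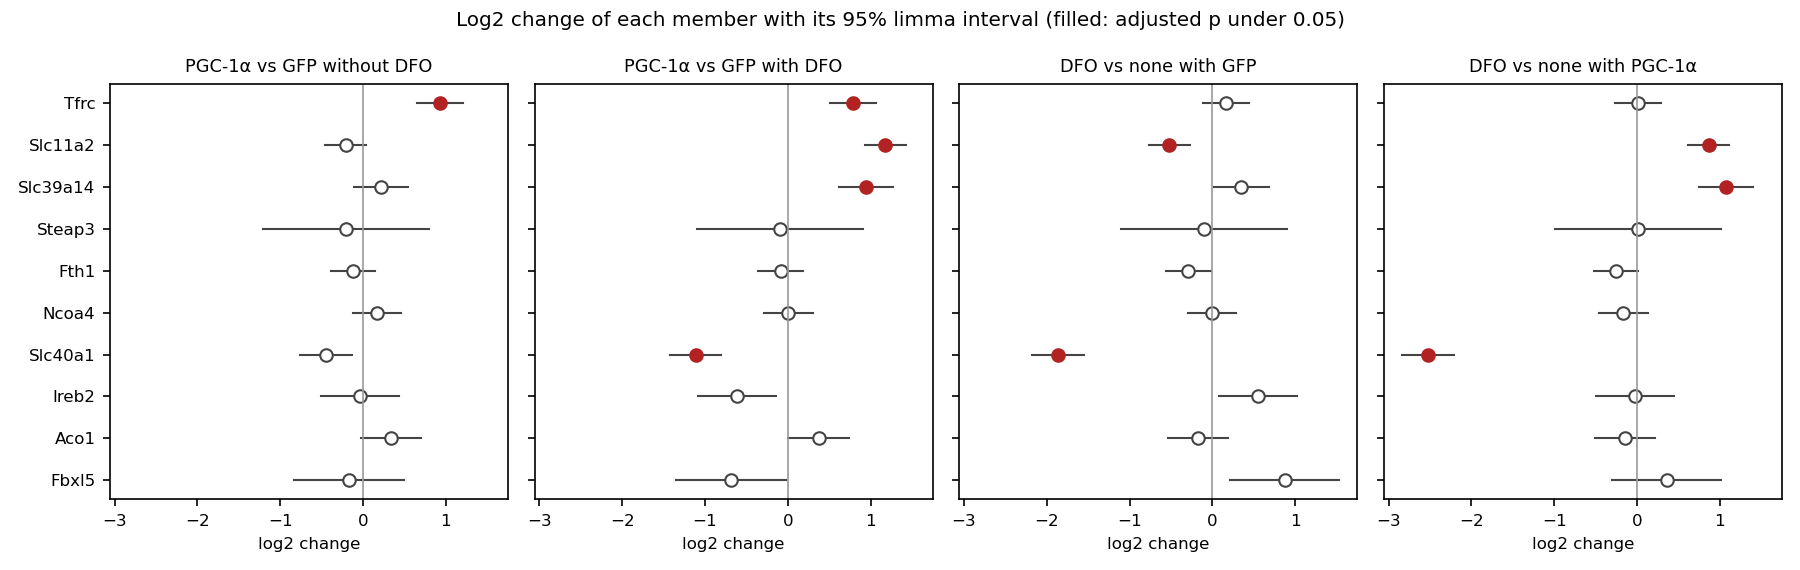
Log2 change of each gene's brightest probe set in the 4 comparisons of a single factor, with limma's 95% interval; filled points have an adjusted p under 0.05. Tfrc is filled in both comparisons of PGC-1α with GFP and in neither DFO comparison, and Slc40a1 is filled in both DFO comparisons.

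The comparisons rest on arrays whose deposited values had about the same median. When each array was instead centred on its poly-A spike-in controls, the median change of all genes became 0.57 for PGC-1α against GFP with DFO, 0.45 for DFO in PGC-1α cells and 0.61 for both treatments against GFP, while it was 0.09 for PGC-1α without DFO and -0.02 for DFO in GFP cells. Among called probe sets, the share that rose went from 36.9% to 92.5%, from 43.1% to 78.5% and from 40.3% to 84.6% in the first 3 of these, from 64.5% to 85.8% in the fourth, and from 48.6% to 48.4% in the last. Changes below are relative to the deposited scale, and the spike-in value stands beside the called changes named below that it ends and beside the printed changes of the 10 genes that it turns.

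Tfrc, the transferrin receptor, was higher with PGC-1α than with GFP on all 6 of its probe sets and on every array, except that the 5′ control read lower on 1 PGC-1α plus DFO array than on the GFP arrays. Its brightest probe set, 1452661_at, read 3914 and 4334 units with GFP and 7693 and 8000 with PGC-1α. It read 4557 and 4646 with GFP plus DFO and 8151 and 7695 with PGC-1α plus DFO. In this set both PGC-1α groups lay far above both GFP groups, and the 2 levels of DFO lay close together within each construct. PGC-1α raised Tfrc by 0.93 ± 0.11 (SE) on the log2 scale without DFO, which is 1.90-fold (adjusted p = 0.0227), and by 0.78 ± 0.11 with DFO, or 1.72-fold (adjusted p = 0.0188). The DFO change was 0.16 in GFP cells (95% interval -0.12 to 0.44, adjusted p = 0.43) and 0.014 in PGC-1α cells (-0.26 to 0.29, adjusted p = 0.958). The interaction was -0.15 (adjusted p = 0.729), and it turned to 0.29 with spike-in centring. Both treatments together against GFP gave 0.94 ± 0.11 (adjusted p = 0.00439). These values are of 1452661_at, and the other Tfrc sets ran opposite to it with DFO in GFP cells. They changed there by -0.44 to -0.32, and none passed (adjusted p = 0.466 to 0.689 by limma). Their group means were lower with DFO in PGC-1α cells too, and none of those changes passed (adjusted p = 0.136 to 0.36).

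The 2 called Tfrc changes with PGC-1α depended on single arrays for their call and not for their size. Without DFO, the change stayed at 0.86 to 1.00 with any 1 array left out. Its adjusted p was 0.0764 to 0.124 without either GFP array, either PGC-1α array or either GFP plus DFO array, and 0.0985 with spike-in centring. With DFO, the Tfrc change stayed at 0.74 to 0.83. Its adjusted p was 0.0541 without either PGC-1α array, 0.0576 without replicate 2 of PGC-1α plus DFO, and 0.119 and 0.137 without replicate 2 and replicate 1 of GFP plus DFO.

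The other Tfrc probe sets gave larger changes with PGC-1α and a wide gap between the 2 arrays of PGC-1α plus DFO. Probe set 1422966_a_at read 1324 and 1108 units with GFP, 3897 and 3657 with PGC-1α, 996 and 920 with GFP plus DFO, and 2236 and 3629 with PGC-1α plus DFO. It rose by 1.64 ± 0.25 with PGC-1α without DFO (adjusted p = 0.0422) and by 1.57 ± 0.25 with DFO (adjusted p = 0.0261). The array's 3′ control for the receptor read 929 and 827, 2682 and 2624, 723 and 663, and 1455 and 2541 units in the same order of groups. Its change was 1.60 ± 0.27 without DFO (adjusted p = 0.0536), and it rose by 1.47 ± 0.27 with DFO (adjusted p = 0.0371). In both sets every PGC-1α array was above every GFP array, and replicate 1 of PGC-1α plus DFO was the lowest of the PGC-1α arrays. The calls of 1422966_a_at were lost without any 1 of the GFP, PGC-1α or GFP plus DFO arrays, at an adjusted p of 0.118 to 0.189 without DFO and 0.0585 to 0.144 with it, and without DFO also with spike-in centring (0.0768). The call of the 3′ control was lost without the same arrays (0.078 to 0.176).

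The 5′ and middle controls of Tfrc and 1422967_a_at separated those 2 arrays most. Probe set 1422967_a_at read 342 and 322 units with GFP, 1520 and 1383 with PGC-1α, 281 and 226 with GFP plus DFO, and 358 and 1075 with PGC-1α plus DFO. The 5′ control read 339 and 344, 1366 and 1247, 285 and 223, and 310 and 964 units in that order. The middle control read 216 and 205, 944 and 913, 195 and 146, and 301 and 653 units. Replicate 1 of PGC-1α plus DFO sat near the GFP level in these sets, and replicate 2 sat nearer PGC-1α. Their changes with PGC-1α were 1.94 to 2.14 without DFO and 1.12 to 1.40 with DFO, and none of these passed (adjusted p from 0.058 to 0.279). The changes without DFO use no array of PGC-1α plus DFO. Leaving out an array of that group therefore cannot move their size and alters only the pooled spread. Without replicate 1 of PGC-1α plus DFO, the changes with DFO were 1.94 to 2.09 in these 3 sets, with 1 array left in that group.

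Replicate 2 of PGC-1α plus DFO exceeded replicate 1 by 3.11-fold in the 5′ Tfrc control, 3.00-fold in 1422967_a_at, 2.16-fold in the middle control, 1.75-fold in the 3′ control and 1.62-fold in 1422966_a_at. The ratio was 0.944 in 1452661_at. A larger gap between these 2 arrays was seen in 0.124% of probe sets above the median level for the 5′ control and in 76.8% for 1452661_at. The ratio of 5′ to 3′ control signal was 0.213 on replicate 1 and 0.38 on replicate 2, against 0.337 to 0.509 on the other 6 arrays. On replicate 1 and replicate 2, beta-actin's ratio was 0.753 and 0.811 and Gapdh's was 1.10 and 1.09. The part of RNA integrity in the Tfrc gap was not tested. The DFO change in PGC-1α cells therefore depended on the probe set and the array for Tfrc. For the 5′ control it was -1.26 with both arrays (adjusted p = 0.19), -2.07 without replicate 2 and -0.44 without replicate 1. Each of the last 2 values rests on 1 array of PGC-1α plus DFO.

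**Figure D3:**
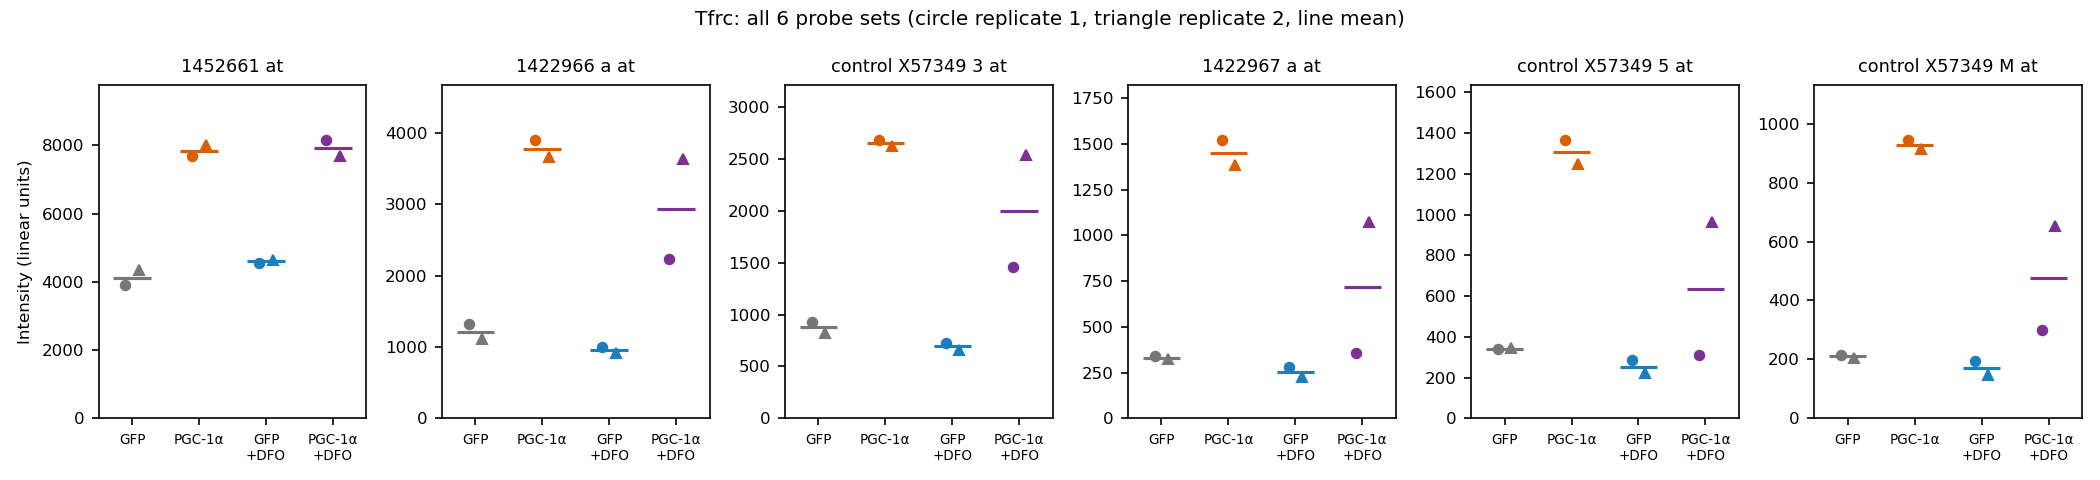
Intensity in linear deposited units of all 6 Tfrc probe sets on the 8 arrays, with circles for replicate 1, triangles for replicate 2 and a line at the group mean; the sets named control are the array's 3′, 5′ and middle transferrin receptor controls. The PGC-1α plus DFO arrays lie together in 1452661_at and apart in the other 5 sets, where replicate 2 is 1.62-fold to 3.11-fold above replicate 1.

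The Tfrc promoter is shown because Tfrc was the 1 gene of the 10 that rose with PGC-1α at both levels of DFO. The letters marked are a short core, ACGTG or GCGTG, bound by the hypoxia-inducible factors, which DFO is known to stabilise. The DFO changes of Tfrc did not pass, and a part of these factors in its rise with PGC-1α was not tested. The 250 bases upstream of the first Tfrc start in RefSeq, chr16:32608646-32608895 on the plus strand of GRCm38.p6, are written 5′ to 3′ with matches to either core, on either strand, in capitals.

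Tfrc upstream: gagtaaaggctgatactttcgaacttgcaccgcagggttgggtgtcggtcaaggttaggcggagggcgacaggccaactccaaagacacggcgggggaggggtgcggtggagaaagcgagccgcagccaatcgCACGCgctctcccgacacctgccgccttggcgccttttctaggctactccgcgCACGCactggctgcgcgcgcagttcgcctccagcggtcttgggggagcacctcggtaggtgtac

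This Tfrc window held GCGTG on the minus strand at 117 and 64 bases before the start and held no ACGTG. The window of the other Tfrc start, chr16:32608872-32609121, held ACGTG at 228 bases before its start and GCGTG at 134 and 42, all on the plus strand. RefSeq windows were matched for 6 of the 10 genes, and 4 of the 6 had a core in at least 1 of their windows, or 6 of 13 windows. Among 32851 windows of the same length, 16.6% held ACGTG, 28.2% held GCGTG and 38.6% held either. These shares are per window, so they stand beside the 6 of 13 windows and not beside the 4 of 6 genes. A match is a description of letters, and occupancy was not measured.

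Slc11a2, the divalent metal transporter DMT1, stood out as low with DFO in GFP cells and high with DFO in PGC-1α cells. Its brightest probe set, 1452078_a_at, read 425 and 440 units with GFP, 378 and 371 with PGC-1α, 297 and 305 with GFP plus DFO, and 682 and 683 with PGC-1α plus DFO. The 4 groups did not overlap, and PGC-1α plus DFO was the highest. DFO lowered Slc11a2 in GFP cells, where it fell by 0.52 ± 0.097 on the log2 scale (adjusted p = 0.0263), and raised it in PGC-1α cells by 0.87 ± 0.097 (adjusted p = 0.00558). PGC-1α raised it with DFO by 1.18 ± 0.097, or 2.27-fold (adjusted p = 0.00551), and gave -0.21 without DFO (adjusted p = 0.31). Both treatments against GFP gave a rise of 0.66 ± 0.097 (adjusted p = 0.00925). The interaction of 1.39 ± 0.14 had an unadjusted p of 0.00012 and did not pass (adjusted p = 0.0923).

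The fall of Slc11a2 with DFO in GFP cells kept its size with any array left out, at -0.55 to -0.50. Its adjusted p rose to 0.0612 without either PGC-1α array, to 0.0923 and 0.095 without either GFP array, and to 0.151 and 0.134 without either GFP plus DFO array. It was 0.209 with spike-in centring. The rise with PGC-1α in the presence of DFO had an adjusted p of 0.069 and 0.0617 without replicate 1 and replicate 2 of GFP plus DFO.

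The other 3 Slc11a2 probe sets showed the rise with PGC-1α in the presence of DFO too, and differed in the DFO comparisons. Probe set 1426441_at read 410 and 383 units with GFP, 317 and 369 with PGC-1α, 184 and 172 with GFP plus DFO, and 421 and 378 with PGC-1α plus DFO. It fell by 1.15 ± 0.13 with DFO in GFP cells (adjusted p = 0.00694) and its DFO change in PGC-1α cells was 0.22 (adjusted p = 0.344). The calls of this set with DFO in GFP cells, and with PGC-1α in the presence of DFO, were lost without either GFP plus DFO array, at an adjusted p of 0.0544 to 0.0954. Probe set 1417584_at read 110 and 130, 123 and 135, 109 and 109, and 186 and 192 units in that order. Only PGC-1α plus DFO stood apart in it, with a rise of 0.55 ± 0.13 with DFO in PGC-1α cells (adjusted p = 0.0459) and a DFO change of -0.13 in GFP cells (adjusted p = 0.586). The dim set 1441709_at read 47.2 and 45.0, 42.0 and 42.0, 22.5 and 24.4, and 59.5 and 40.4 units, and fell by 0.98 ± 0.20 with DFO in GFP cells (adjusted p = 0.0345). With PGC-1α in the presence of DFO, these 3 sets rose by 1.16, 0.79 and 1.07 (adjusted p = 0.0113, 0.0269 and 0.0383). Against GFP, both treatments gave 0.66 in 1417584_at (adjusted p = 0.0221), 0.0095 in 1426441_at (adjusted p = 0.977) and 0.088 in 1441709_at (adjusted p = 0.815). The rise above GFP was thus called in 2 of the 4 sets. The calls of the 2 dimmer sets did not hold with most single arrays left out, with an adjusted p of up to 0.186 in 1417584_at and 0.201 in 1441709_at. With spike-in centring the fall of 1441709_at with DFO in GFP cells had an adjusted p of 0.0772.

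**Figure D4:**
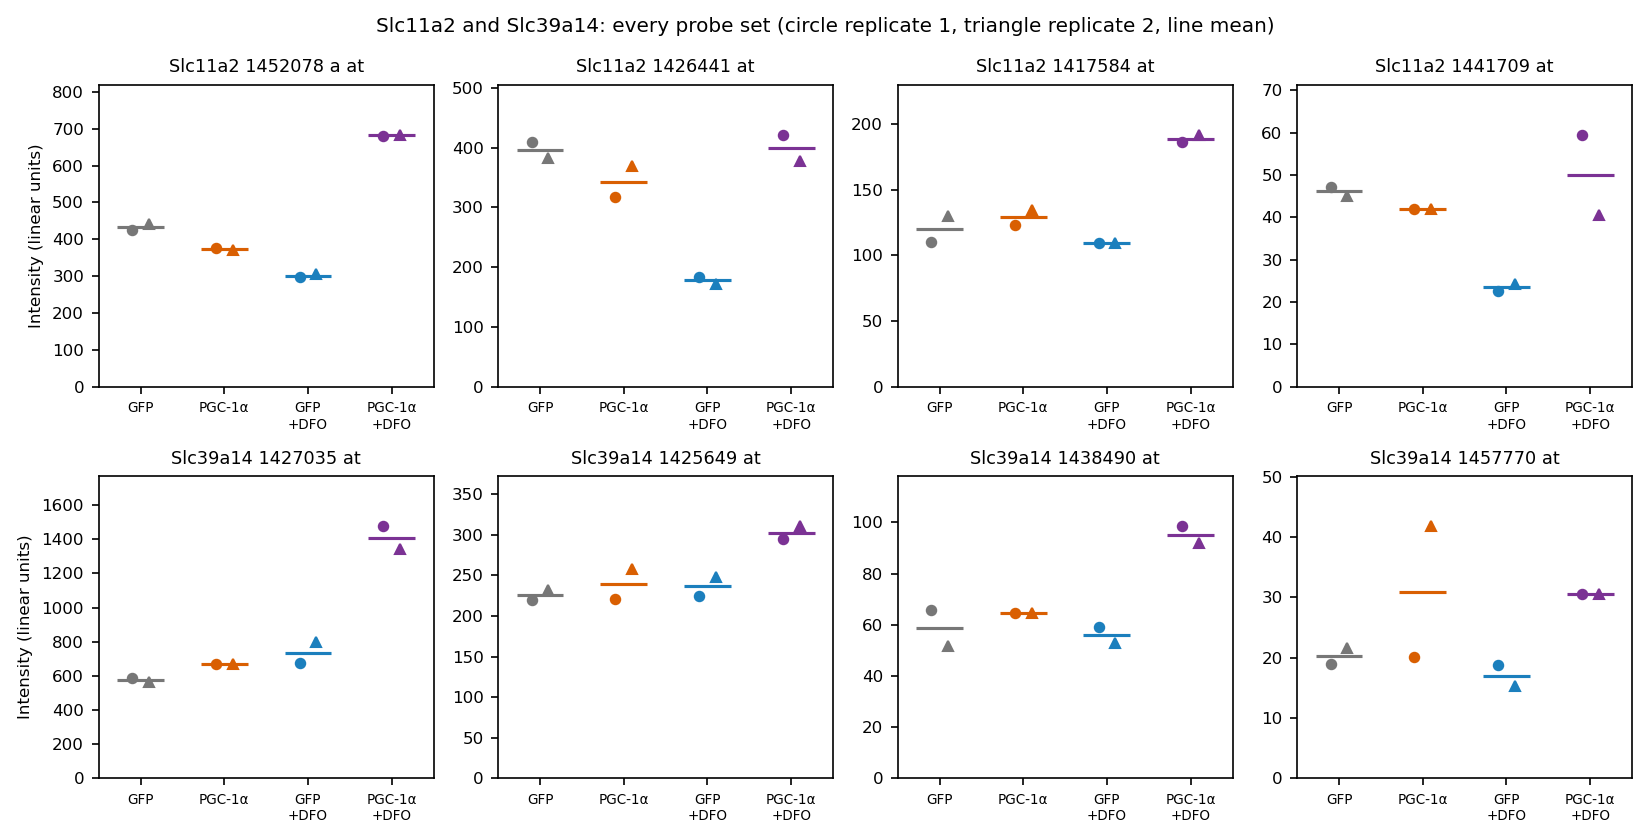
Intensity in linear deposited units of the 4 Slc11a2 and 4 Slc39a14 probe sets on the 8 arrays, with circles for replicate 1, triangles for replicate 2 and a line at the group mean. Both GFP plus DFO arrays are the lowest in all 4 Slc11a2 sets, and PGC-1α plus DFO is highest in the leading sets of both genes.

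Slc39a14 encodes ZIP14, a transporter that takes up iron not bound to transferrin, and it was highest with PGC-1α plus DFO. Its brightest probe set, 1427035_at, read 587 and 562 units with GFP, 670 and 670 with PGC-1α, 675 and 796 with GFP plus DFO, and 1476 and 1340 with PGC-1α plus DFO. The last group lay clear of the other 3. Slc39a14 rose with DFO in PGC-1α cells by 1.07 ± 0.13, or 2.10-fold (adjusted p = 0.00687), and its DFO change in GFP cells was 0.35 (adjusted p = 0.156). It rose with PGC-1α in the presence of DFO by 0.94 ± 0.13 (adjusted p = 0.0177), and its change with PGC-1α without DFO was 0.22 (adjusted p = 0.403). Both treatments against GFP raised it by 1.29 ± 0.13, or 2.45-fold (adjusted p = 0.00276). The rise with PGC-1α in the presence of DFO stayed at 0.82 to 1.06 with any array left out, and its adjusted p was 0.0526 without either PGC-1α array, 0.0505 and 0.0545 without either PGC-1α plus DFO array, and 0.12 and 0.081 without either GFP plus DFO array.

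Probe set 1438490_at of Slc39a14 read 98.5 and 92.0 units with PGC-1α plus DFO and 51.8 to 65.7 on the other 6 arrays. It rose by 0.77 ± 0.15 with PGC-1α in the presence of DFO (adjusted p = 0.0441), by 0.71 ± 0.15 with both treatments (adjusted p = 0.0303), and its DFO change in PGC-1α cells was 0.56 (adjusted p = 0.0719). The first of these calls was lost without any 1 array of PGC-1α, GFP plus DFO or PGC-1α plus DFO (adjusted p = 0.0941 to 0.205). The call for both treatments was lost without those arrays or GFP replicate 2 (0.0637 to 0.101). Probe set 1425649_at read 294 and 310 units with PGC-1α plus DFO and 219 to 258 on the other arrays. Its changes of 0.34 with DFO in PGC-1α cells and 0.36 with PGC-1α in the presence of DFO did not pass (adjusted p = 0.156 and 0.175). The dim set 1457770_at read 15.2 to 41.8 units over the 8 arrays, and none of its changes passed. The mean over the 4 sets rose less than the leading set, by 0.51 with DFO in PGC-1α cells (adjusted p = 0.0512).

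Steap3 encodes the endosomal ferric reductase that works with the receptor, and none of its changes passed in any comparison. Its 3 probe sets were read at 105 to 212, 63.8 to 133 and 64.8 to 117 units. In the leading set, 1453498_x_at, the 2 GFP arrays read 105 and 212 units and spanned all the other arrays. In the other sets, 1430355_a_at and 1423468_at, PGC-1α plus DFO was lowest, at 76.9 and 63.8 units and at 68.2 and 64.8. Their changes with DFO in PGC-1α cells were -0.69 and -0.51 (adjusted p = 0.0748 and 0.128).

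Fth1, the heavy chain of ferritin, read 11859 and 11108 units with GFP, 10632 and 10486 with PGC-1α, 9181 and 9605 with GFP plus DFO, and 8558 and 9154 with PGC-1α plus DFO on probe set 1427021_s_at. The DFO arrays were below the arrays without DFO. The DFO change was -0.29 in GFP cells (adjusted p = 0.154) and -0.25 in PGC-1α cells (adjusted p = 0.187), and neither passed. Both treatments against GFP gave -0.37 ± 0.11 (adjusted p = 0.0657). The other set, 1448771_a_at, read 11114 and 10288, 10385 and 9894, 8686 and 8410, and 7847 and 7238 units in that order. It fell by 0.50 ± 0.11 with both treatments (adjusted p = 0.031), turned to 0.11 with spike-in centring, and had an adjusted p of 0.0516 to 0.124 with any 1 array left out. Its DFO change in PGC-1α cells was -0.43 (adjusted p = 0.0607), which turned to 0.012 with spike-in centring. Ferritin heavy chain has processed pseudogenes, and sets ending in _s_at or _a_at can read related transcripts. With spike-in centring the leading Fth1 set turned to 0.24 for both treatments and to 0.18 for DFO in PGC-1α cells, where all genes moved up by 0.61 and 0.45.

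Ncoa4, the cargo receptor that takes ferritin to the lysosome, did not pass in any comparison. Its leading set, 1420808_at, read 985 and 905 units with GFP, 1054 and 1068 with PGC-1α, 948 and 931 with GFP plus DFO, and 1004 and 890 with PGC-1α plus DFO. The largest change of this set was 0.17 with PGC-1α without DFO (95% interval -0.13 to 0.46, adjusted p = 0.48). Probe set 1450006_at read 457 to 675 units over the 8 arrays, and none of its changes passed.

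Slc40a1 encodes ferroportin, the cell's iron exporter, and its transcript fell with DFO in both constructs. Probe set 1417061_at read 569 and 594 units with GFP, 411 and 440 with PGC-1α, 151 and 170 with GFP plus DFO, and 77.8 and 70.2 with PGC-1α plus DFO. The 4 groups lay in that order with no overlap. DFO lowered Slc40a1 in GFP cells, where it fell by 1.86 ± 0.12 on the log2 scale, to 0.28 of its level (adjusted p = 0.0017). In PGC-1α cells it fell by 2.52 ± 0.12, to 0.17 of its level (adjusted p = 0.000652). The 2 DFO changes differed by -0.66 ± 0.17, which did not pass (adjusted p = 0.252), and by -0.22 with spike-in centring.

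PGC-1α itself gave lower Slc40a1 with DFO, where it fell by 1.11 ± 0.12 (adjusted p = 0.0107). Without DFO the change was -0.45 ± 0.12 and did not pass (adjusted p = 0.136), so GFP and PGC-1α, neighbours in the order of levels, were not separated by the test. Both treatments against GFP gave the largest change of the 10 genes: Slc40a1 fell by 2.97 ± 0.12, to 0.13 of the GFP level (adjusted p = 0.0003). With any array left out, the adjusted p of the 2 DFO changes and of both treatments stayed between 0.00257 and 0.0239. That of PGC-1α with DFO became 0.0784 and 0.0874 without replicate 1 and replicate 2 of GFP plus DFO, and with spike-in centring that change was -0.50 (adjusted p = 0.184).

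The second Slc40a1 set, 1448566_at, read 249 and 304 units with GFP, 190 and 199 with PGC-1α, 65.6 and 73.5 with GFP plus DFO, and 44.8 and 23.6 with PGC-1α plus DFO. The order of groups was as in the first set, again with no overlap. It fell by 1.99 ± 0.32 with DFO in GFP cells (adjusted p = 0.0171). With DFO in PGC-1α cells it fell by 2.58 ± 0.32 (adjusted p = 0.00734), and with both it fell by 3.08 ± 0.32 (adjusted p = 0.00307). The first of these had an adjusted p of 0.0721 to 0.105 without any 1 GFP or GFP plus DFO array. Its changes with PGC-1α were -0.50 without DFO and -1.09 with it, and neither passed (adjusted p = 0.444 and 0.108). Without replicate 1 of PGC-1α plus DFO, the latter was -1.55, with 1 array left in that group. Myotube marker sums fell with DFO in the same groups, as given above, and their part in the Slc40a1 values was not tested.

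The 3 genes of iron sensing did not pass in any comparison. Ireb2, which encodes iron regulatory protein IRP2, read 413 and 564 units with GFP, 487 and 456 with PGC-1α, 731 and 682 with GFP plus DFO, and 501 and 429 with PGC-1α plus DFO on its 1 probe set, 1433527_at. GFP plus DFO was above all other arrays. Its DFO change in GFP cells was 0.55 ± 0.19 (adjusted p = 0.131), and its change with PGC-1α in the presence of DFO was -0.61 ± 0.19 (adjusted p = 0.122), or 0.009 with spike-in centring. Fbxl5, the iron-binding ubiquitin ligase subunit that targets IRP2, read 330 and 561 units with GFP, 374 and 392 with PGC-1α, 808 and 765 with GFP plus DFO, and 516 and 465 with PGC-1α plus DFO on 1433441_at. It too was highest with GFP plus DFO. Its DFO change in GFP cells was 0.87 ± 0.26 (adjusted p = 0.0979), or 1.25 without GFP replicate 2, which leaves 1 GFP array. Its change with PGC-1α in the presence of DFO was -0.68 ± 0.26 (adjusted p = 0.192). The 2 GFP arrays differed by more in Fbxl5 and Ireb2 than the 2 arrays of any other group.

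Aco1, which encodes IRP1, the cytosolic aconitase that binds iron-responsive elements when it lacks its iron-sulfur cluster, had higher group means with PGC-1α at both levels of DFO in its 2 brighter sets, by amounts that did not pass. The leading set, 1456728_x_at, read 1370 and 1315 units with GFP, 1709 and 1692 with PGC-1α, 1198 and 1175 with GFP plus DFO, and 1730 and 1363 with PGC-1α plus DFO. Its changes with PGC-1α were 0.34 ± 0.14 without DFO and 0.37 ± 0.14 with it, and neither passed (adjusted p = 0.271 and 0.196). Set 1423644_at read 234 and 284, 351 and 394, 264 and 242, and 403 and 347 units, with changes of 0.53 and 0.56 that did not pass either (adjusted p = 0.158 and 0.0986). The dim set 1447080_at read 23.8 to 70.2 units and had changes of -0.67 and -0.50 (adjusted p = 0.478 and 0.592), the latter 0.12 with spike-in centring.

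Other genes of iron handling were read from a textbook list, of which 29 were measured, and Trf and Ftl1 are among those not analysed here. The shares of all genes given above are the background of these counts too. With PGC-1α without DFO, 2 of the 29 rose and 1 fell. Lcn2, a siderophore-binding lipocalin, rose by 1.63 ± 0.10 (adjusted p = 0.00606), and the metalloreductase gene Steap2 rose by 1.16 ± 0.13 (adjusted p = 0.0191). Hjv, the BMP co-receptor hemojuvelin made in skeletal muscle and liver, fell by 0.89 ± 0.14 (adjusted p = 0.0441). With single arrays left out these 3 kept their direction, and the adjusted p reached 0.0615 for Lcn2, 0.115 for Steap2 and 0.188 for Hjv, whose call was lost without any 1 array. With spike-in centring Hjv changed by -0.71 (adjusted p = 0.187) and Steap2 by 1.34 (adjusted p = 0.0529), and Lcn2 stayed called. With DFO in GFP cells, 7 rose and 3 fell. Hjv read 2676 and 2309 units with GFP and 287 and 259 with GFP plus DFO, and fell by 3.19 ± 0.14 (adjusted p = 0.000874). The ferritin receptor gene Scara5 fell by 1.97 ± 0.16 (adjusted p = 0.00274). Hmox1, the haem-degrading oxygenase that releases iron, rose by 1.69 ± 0.12 (adjusted p = 0.00193).

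In the presence of DFO, PGC-1α raised 5 of the 29 and lowered 1. Lcn2 read 280 and 264 units with GFP plus DFO and 2455 and 2441 with PGC-1α plus DFO, a rise of 3.17 ± 0.10 (adjusted p = 0.00122). Slc11a1, the phagosomal metal transporter related to Slc11a2, rose by 1.36 ± 0.20 (adjusted p = 0.02), and the mitochondrial iron importer Slc25a28 rose by 1.15 ± 0.13 (adjusted p = 0.0108). Hjv fell by 1.71 ± 0.14 (adjusted p = 0.00528). Without either GFP plus DFO array the adjusted p reached 0.133 for Slc11a1, 0.0987 for Slc25a28 and 0.064 for Hjv, and Lcn2 stayed called. With DFO in PGC-1α cells, 8 rose and 3 fell. Cp, the ferroxidase ceruloplasmin, rose by 2.32 ± 0.12 (adjusted p = 0.000739), Lcn2 by 2.24 ± 0.10 (adjusted p = 0.000521) and Hmox1 by 2.11 ± 0.12 (adjusted p = 0.000904), and Hjv fell by 4.02 ± 0.14 (adjusted p = 0.000337). With both treatments against GFP, 10 rose and 3 fell. In the interaction limma called 0 of the 29, with 6 at an unadjusted p under 0.05. The background of those 6 is the 5926 of 45101 probe sets, or 3173 of 18193 genes, given above. The list's median change was 0.07, 0.16, 0.29, 0.31 and 0.38 in the 5 comparisons as ordered here. With 1 array left out, the counts of higher and lower genes ranged over 0 to 2 and 0 to 0 with PGC-1α without DFO, 2 to 6 and 2 to 3 with DFO in GFP cells, 1 to 5 and 0 to 1 with PGC-1α in the presence of DFO, 4 to 7 and 2 to 3 with DFO in PGC-1α cells, and 7 to 9 and 2 to 3 with both. In those fits the share of all probe sets called ranged over 0.0599% to 2.41%, 3.43% to 14.2%, 0.361% to 7.61%, 6.27% to 12.2% and 11.6% to 17.4%, against 2.99%, 13.95%, 8.89%, 15.7% and 20.6% with all arrays. With spike-in centring they were 1 and 0, 2 and 2, 9 and 1, 8 and 1, and 15 and 2, where 0.796%, 6.11%, 7.66%, 12.6% and 24.0% of all probe sets were called.

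Of further transcripts described as holding an iron-responsive element, 5 were measured, and the shares of all genes called are again those given above. Cdc42bpa, a kinase gene, was the 1 that rose with DFO, by 1.71 ± 0.15 in GFP cells (adjusted p = 0.00349) and by 1.43 ± 0.15 in PGC-1α cells (adjusted p = 0.00468). It also rose with both treatments against GFP, and limma called 0 of the 5 with PGC-1α at either level of DFO, with 1 at each level at an unadjusted p under 0.05, as had 9092 and 11030 of the 45101 probe sets. It called 0 in the interaction, with 0 unadjusted. With quantile, median or spike-in centring, 1 of the 5 passed with PGC-1α in the presence of DFO, as did 9.19%, 8.71% and 7.66% of all probe sets.

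**Figure D5:**
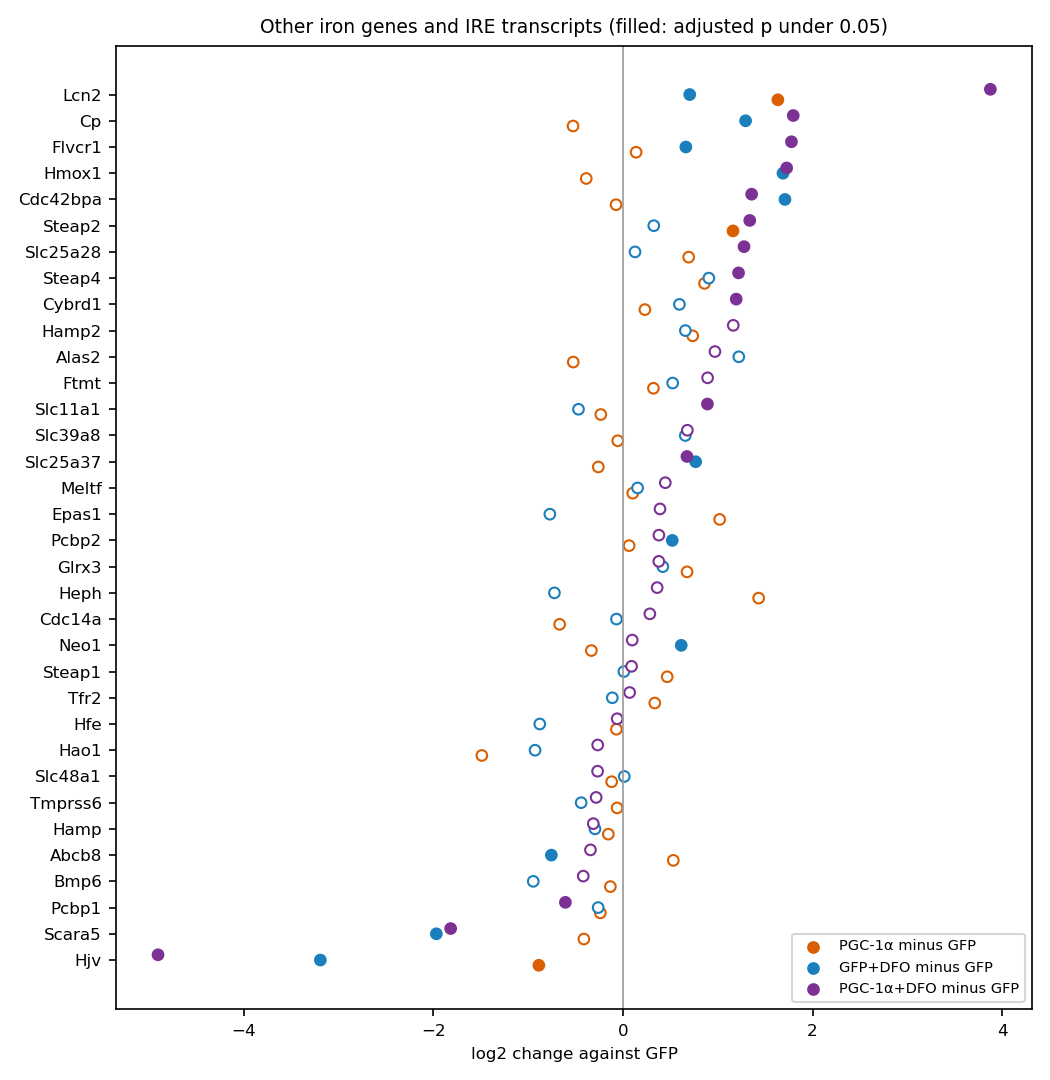
Log2 change against the GFP arrays of the other measured iron genes and iron-responsive element transcripts, ordered by PGC-1α plus DFO; filled points have an adjusted p under 0.05 by limma, and all 3 series share the GFP arrays. Lcn2 lies furthest right with PGC-1α plus DFO and Hjv furthest left with both DFO groups.

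Likeness to Tfrc and to Slc40a1 was measured as the root mean square difference in the 3 log2 changes against GFP, over 11677 genes above the median level. The 5 genes nearest Tfrc were Adra1b, Micos10, Clec16a, Msra and Pstk, at 0.035 to 0.086. Adra1b changed by 0.93 with PGC-1α, 0.22 with DFO and 0.95 with both. The 5 nearest Slc40a1 were Myhas, Ap4s1, Serinc2, Tbx15 and Bid, at 0.118 to 0.165. Myhas changed by -0.41, -2.06 and -3.00 in the same order. The 3 changes share the GFP arrays.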

How the data were processed

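The authors deposited linear probe-set intensity values for each array; their summarisation, background correction and scaling are not given in the sources used here. The log2 of each value was taken as it stood, dim values included. Gene symbols came from the platform annotation, and the 3 transferrin receptor controls were added to Tfrc. The fit used limma 3.58.1 (R 4.3.3) on all 45101 probe sets of the 8 arrays, with a mean for each group (lmFit, eBayes without trend or robust options; 4 residual and 1.268 prior degrees of freedom). Benjamini-Hochberg adjustment ran over all probe sets of each of 6 contrasts, two-sided, called under 0.05. An exact permutation test of 2 arrays against 2 cannot go below p = 0.333. The procedure was tested on simulated data. All probe sets of the 10 genes are described; from the textbook lists at most the 4 largest called changes per single-factor contrast are named. The genes, lists and tests were chosen with earlier results of these data known. Alternatives were other scalings, probe-set rules, filters, moderation, the groups fitted, the replicate number as a block, and each array left out. With an array left out, its group keeps 1 array and adds nothing to the pooled spread, so such p-values miss that group's spread. Promoter windows are RefSeq's for GRCm38.p6. Figures were drawn with matplotlib 3.10.9. The number of arrays limits the precision.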

Additional observations from a re-analysis of the deposited data

Results flagged for a closer look

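In all 4 Slc11a2 probe sets the order of the arrays was opposite, with no overlap, for DFO in the 2 constructs or for PGC-1α at the 2 levels of DFO. The sets were flagged by this order, so the order and the p-values below come from the same values. Its share over all probe sets was not counted, so its presence in the 4 sets of this 1 gene cannot be read as unusual. In 1417584_at the GFP side of it rests on 109 and 109 units with DFO against 110 and 130 without. That DFO change was -0.13 (adjusted p = 0.586 by limma). Both opposite changes passed in 1452078_a_at, and in each of the other 3 sets at most 1 of them did. The DFO change in PGC-1α cells minus that in GFP cells was 1.39 on the log2 scale in 1452078_a_at (unadjusted p = 0.00012, adjusted p = 0.0923 by limma) and 1.37 in 1426441_at (unadjusted p = 0.000596, adjusted p = 0.131). It was 1.2 in 1441709_at (unadjusted p = 0.00726, adjusted p = 0.22) and 0.68 in 1417584_at (unadjusted p = 0.0118, adjusted p = 0.254). The difference itself was thus tested and did not pass over all probe sets.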

How the results depend on the processing

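Over 60 changes and 1124 alternative values of them, the 14 called changes never changed sign. The number of genes called was 2 with DFO in GFP cells, and became 7 with trend and robust moderation, 6 among probe sets above the median, and 1 with only the groups compared, with spike-in centring or with the replicate block. It was 4 for PGC-1α with DFO, and became 7 with trend and robust moderation, 0 with only the groups compared and 2 with the replicate block. It was 1 for PGC-1α without DFO, and became 3 with trend and robust moderation, 2 above the median and 0 with only the groups compared, spike-in centring or the block. It was 3 for DFO in PGC-1α cells and 4 for both treatments, and with only the groups compared 1 and 2. For the interaction it was 0, and became 2 with trend and robust moderation and 1 with a floor, 1 probe set per gene or probe sets above the median. The share of all features called moved too. Features here are the probe sets of each fit, or genes with 1 set per gene. The shares of genes given earlier, by brightest probe set, were 8.79% higher and 9.43% lower with DFO in GFP cells. Over all probe sets the share was 13.95% with DFO in GFP cells. It became 22.0% with trend and robust moderation, 41.6% above the median, 6.72% with only the groups compared, 6.11% with spike-in centring and 9.83% with the block. For PGC-1α with DFO it was 8.89%, and became 19.1% with trend and robust moderation, 0% with only the groups compared (limma, 9830 probe sets at an unadjusted p under 0.05) and 4.22% with the block. For PGC-1α without DFO it was 2.99%, and became 12.7% with trend and robust moderation, 21.7% above the median, 0% with only the groups compared (7907 unadjusted), 0.796% with spike-in centring and 0.552% with the block. For DFO in PGC-1α cells and both treatments, 15.7% and 20.6% became 1.37% and 5.21% with only the groups compared. For the interaction, 0.0244% became 4.71% with trend and robust moderation, 0.867% with a floor, 0.561% with 1 set per gene and 5.30% above the median. With 1 array left out the ranges were 1 to 2, 0 to 4, 0 to 1, 3 to 3, 4 to 4 and 0 to 0 in that order of comparisons.

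Tfrc turned to -0.28 with DFO in GFP cells and to -0.73 in PGC-1α cells as the mean of its probe sets, and the latter to -0.018 with median centring and -0.028 to 0.055 with 1 array left out. Its interaction turned to 0.29 with spike-in centring, as did Fth1 to 0.18 for DFO in PGC-1α cells and 0.24 for both treatments, and Ireb2 to 0.009 for PGC-1α with DFO. In all, 68 values of 28 changes turned sign, 15 of them with spike-in centring, and 50 calls were lost, 27 by leaving out an array, while 30 were gained. The cause was not tested. Same-numbered arrays correlated by -0.086 to 0.167 in their deviations, with the highest value between the 2 DFO groups. With 2 arrays in each group, this cannot settle whether the numbers pair them. Slc11a2 without sets ending in _x_at, _s_at or _a_at gave 0.22 with DFO in PGC-1α cells and 0.0095 with both treatments, neither called. For the other iron genes, the scalings and left-out arrays were chosen after seeing the data. Dim sets limit what Steap3 can show.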
